A study of Mus musculus with 495 samples.

Results

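The 9 genes described here, Nnat, Dlk1, Meg3, Rian, Peg3, Peg10, Mest, Igf2 and H19, are imprinted genes. They were taken by name from the 23002 genes of a count table of single cells of the mouse embryonic pancreas, and their levels were compared between endocrine cells, Neurog3-positive progenitors and the stromal and exocrine cells of a duct plate. Each deposited sample was 1 cell, made into a library with Smart-Seq2, a full-length method that counts reads and not molecules. The 495 cells came from 7 plates. Cells of E17.5 (EA06 with 57 cells and EA07 with 72) were labelled Neurog3-Cre, Rosa-mTmG, a genotype in which Cre driven by Neurog3 switches the fluorescent reporter. Cells of E15.5 were labelled Neurog3-eGFP, a knock-in reporter line, and came from plates coded Neurog3 (EA01 with 73 cells and EA03 with 70), endocrine (EA02 with 72 and EA05 with 85) and duct (EA04 with 66). Embryonic stage and strain therefore changed together. The count table's column names carry the knock-in word on every plate, EA06 and EA07 included, so the strain of these plates rests on the labels alone. No animal, litter or sort gate is named in the labels, so that each labelled group was 1 sample, no p-value was computed, and intervals cover counting error only.

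Imprinted genes are transcribed mainly from the copy inherited from 1 parent, because DNA methylation set in the egg or sperm differs between the maternal and the paternal copy. Nnat, Dlk1, Peg3, Peg10, Mest and Igf2 are known as genes of the paternal copy and code for proteins, while Meg3, Rian and H19 are long noncoding RNAs of the maternal copy. Several of them act on growth of the embryo and placenta. In the pancreas Nnat is known as an endoplasmic reticulum protein of beta cells that assists processing of preproinsulin, and Dlk1 is a transmembrane protein with EGF repeats like those of the Notch ligands. The counts do not tell the parental copies apart, so the values below are total levels of each gene and not a measure of imprinting.

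Cells were placed in classes by genes other than these 9. In the 6 plates EA01 to EA03 and EA05 to EA07, a cell with a hormone at 1000 CPM or more (CPM are the gene's counts per 1000000 counts of the cell) that made up over 50% of its hormone counts was given to that hormone. That gave 69 insulin, 19 glucagon, 27 somatostatin, 28 ghrelin and 11 pancreatic polypeptide (PP) cells, with 1 mixed cell left out of the comparisons. Of the rest, 186 cells with Neurog3 at 20 CPM or more formed the Neurog3-positive class. The other 88 are called hormone-negative and Neurog3-negative cells. Hormone cells could also carry Neurog3 at 20 CPM or more. Those that did were 14 of 28 ghrelin, 5 of 27 somatostatin, 3 of 11 PP, 3 of 69 insulin and 1 of 19 glucagon cells. Neurog3 codes for the transcription factor that starts the endocrine programme. The duct plate held 13 Col3a1-positive cells, the lowest at 1149 CPM of this fibrillar collagen, and 53 other cells, the highest at 11.7 CPM. Most of those 53 did not match the plate's code: 43 carried the acinar enzyme gene Cpa1 at 1000 CPM or more, and their 10 acinar markers summed to 57768 CPM. The Col3a1-positive cells had 5 of 9 mesenchyme markers at 20 CPM or more (sum 11236 CPM, with Pdgfra and Postn at 0) and 4 of 5 mesothelium markers (sum 1158 CPM), so they are named here only by Col3a1. Depth per cell was 200152 to 1182889 counts with a median of 533363, and no 2 cells had identical counts. The ribosomal RNA gene Rn45s took 23.04% of counts in the duct plate, 9.52% in Neurog3-positive cells of E17.5 and 21.6% in those of E15.5, a difference that moves with the plates.

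Some cells stood apart from their class. In plates EA01 to EA03 the wells of row D and row H held only 15 cells, against 31 to 35 in each other row, and the labels do not set them apart. Whether they share the source of the other wells was not tested, so insulin values at E15.5 that include them carry that doubt. The 10 insulin cells among them had 97067 CPM of Ins2, 8027 CPM of Sst and 432 CPM of Ucn3, a gene of mature mouse beta cells, against 21529.8, 119.6 and 5.38 CPM in the 59 insulin cells of other wells. The rows also held 1 glucagon, 2 somatostatin and 2 hormone-negative cells, and no Neurog3-positive cell. A glucagon cell of EA03 combined 14231 CPM of Gcg with 3411 CPM of Col3a1 and had 8 of 9 mesenchyme markers at 20 CPM or more. An insulin cell of EA02 carried acinar markers summing to 47187 CPM. These cells were noticed after their values were seen. Member levels that rest on them are mostly given with and without them, and counts of other imprinted genes include them.

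The genes lie in 6 places of the genome (GRCm38, GENCODE release M21). Dlk1, Meg3 and Rian form a cluster on the plus strand of chromosome 12, at chr12:109452823-109463336, chr12:109541001-109571726 and chr12:109603940-109661716, with 77.665 kb between Dlk1 and Meg3 and 32.214 kb between Meg3 and Rian. Igf2 (chr7:142650766-142666816) and H19 (chr7:142575529-142578143) are neighbours on the minus strand of chromosome 7, 72.623 kb apart, and Peg3 (chr7:6703892-6730431, minus strand) lies elsewhere on that chromosome. Peg10 (chr6:4747306-4760517) and Mest (chr6:30723547-30748465) are 25.963 Mb apart on the plus strand of chromosome 6. Nnat (chr2:157560078-157562522, plus strand) lies inside the Blcap gene on the opposite strand and shares no exon base with it. Mest shares 912 of its 3945 exon bases with Copg2 on the opposite strand, and no source used here states that counting used strand.

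Because imprinted expression depends on methylation of CpG sites, the 250 bases before a RefSeq start are shown for Nnat, Dlk1, Mest and Igf2. Every CpG is in capitals. Nnat and Dlk1 were called higher in insulin cells, and Mest and Igf2 were highest in Col3a1-positive cells. The sequences are 5′ to 3′ on the gene's strand, from RefSeq on GRCm38.p6. They are Nnat at chr2:157559828-157560077 (plus strand), Dlk1 at chr12:109452573-109452822 (plus), Mest at chr6:30737800-30738049 (plus) and Igf2 at chr7:142658805-142659054 (minus).
Nnat: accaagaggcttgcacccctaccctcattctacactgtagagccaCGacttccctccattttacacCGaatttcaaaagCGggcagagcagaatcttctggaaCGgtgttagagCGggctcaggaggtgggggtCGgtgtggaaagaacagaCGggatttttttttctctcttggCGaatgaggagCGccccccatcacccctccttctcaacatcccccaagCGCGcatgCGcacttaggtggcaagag
Dlk1: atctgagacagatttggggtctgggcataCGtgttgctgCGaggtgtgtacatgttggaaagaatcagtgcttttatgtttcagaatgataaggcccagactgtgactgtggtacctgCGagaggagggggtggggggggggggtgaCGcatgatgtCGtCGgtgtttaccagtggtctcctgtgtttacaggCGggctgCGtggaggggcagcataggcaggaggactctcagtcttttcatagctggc
Mest: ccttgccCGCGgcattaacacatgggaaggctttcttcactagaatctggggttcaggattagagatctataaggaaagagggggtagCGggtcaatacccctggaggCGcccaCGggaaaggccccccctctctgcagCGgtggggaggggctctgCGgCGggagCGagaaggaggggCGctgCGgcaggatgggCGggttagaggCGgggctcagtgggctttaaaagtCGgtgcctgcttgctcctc
Igf2: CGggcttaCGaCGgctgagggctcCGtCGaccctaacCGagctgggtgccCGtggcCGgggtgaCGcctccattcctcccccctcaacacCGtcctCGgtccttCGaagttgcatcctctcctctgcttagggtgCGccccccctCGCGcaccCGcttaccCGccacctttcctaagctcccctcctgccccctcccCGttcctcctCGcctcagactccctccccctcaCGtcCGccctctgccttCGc
There were 12 CpG in the Nnat window, 8 in Dlk1, 14 in Mest and 22 in Igf2, against a median of 6 over 32851 promoters of this length. As many CpG as in the Igf2 window were found in 14.8% of those promoters, and as many as in the Nnat window in 33.5%. Of the genes not printed, Meg3 had 10 CpG, Peg3 had 8 and Rian had 0, while Peg10 and H19 were not matched. Mest and Igf2 each have further RefSeq starts, whose windows had 14 and 7 CpG for Mest and 10, 6 and 1 for Igf2. The Igf2 window with 1 CpG is the one directly before the gene span given above, and the printed one lies within that span. A further start of Meg3 had 0 CpG. The CpG counts of these genes thus depend on the start chosen. Methylation was not measured, and these counts describe the sequence alone.

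Each class was set against another by the log2 ratio of class CPM (counts summed over cells and divided by the class total), with 5 CPM added to both. A gene was measured in a comparison when either class reached 20 CPM, and it was called when the ratio passed 2-fold. No replicate error enters these calls, and the share of all genes called is given with the counts. Against Neurog3-positive cells, 2 of 8 measured members were higher and 3 lower in insulin cells, where 11.9% of 7855 genes were higher and 16% lower. In glucagon cells 3 of 9 were higher and 1 lower, against 19.2% and 23.7% of all genes measured. In somatostatin cells 5 of 9 were higher and 2 lower, against 16.5% and 18.6%. In ghrelin cells 2 of 9 were higher and 3 lower, against 14.4% and 16.1%, and in PP cells 3 of 9 were higher and 2 lower, against 19.9% and 25.4%. The median log2 ratio of the members was 1.30 in somatostatin cells, 0.94 in PP cells, 0.83 in glucagon cells, -0.03 in insulin cells and -0.42 in ghrelin cells, with medians over all genes between -0.13 and 0.05. Peg10 was higher in 4 of the 5 hormone classes. H19 was called lower in 4 of the 5, and no member was called in the same direction in every class.

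**Figure D1:**
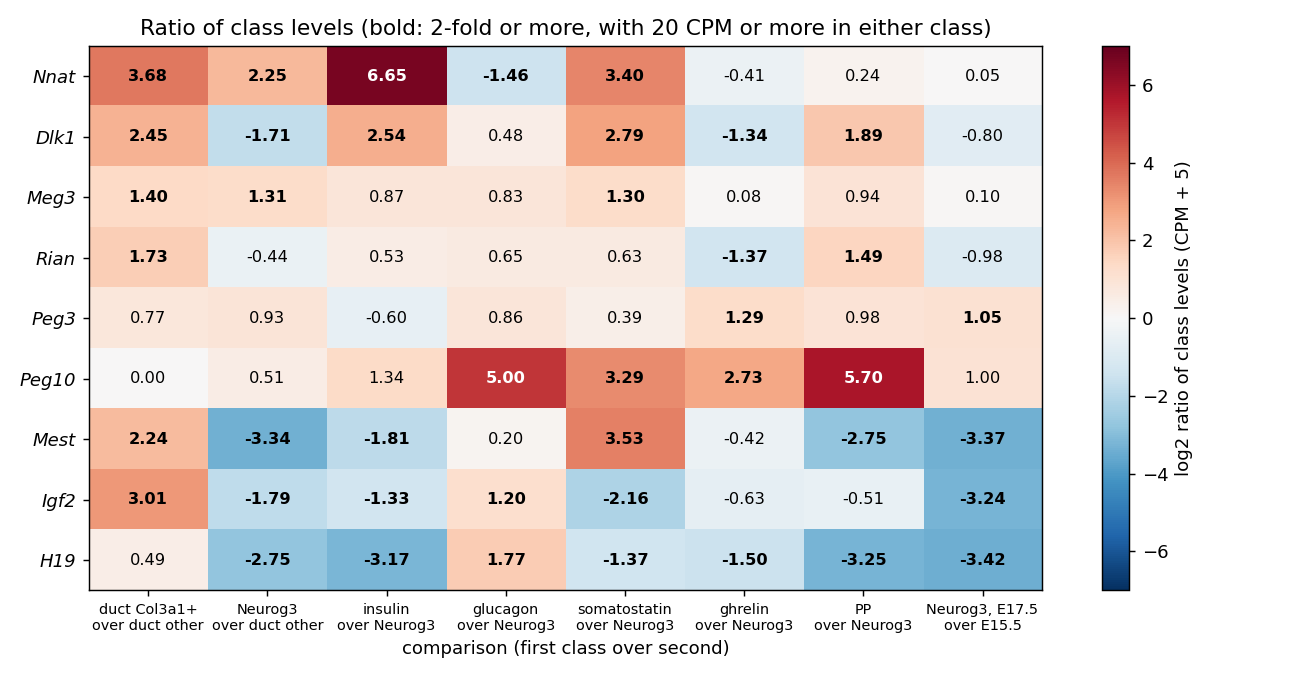
Log2 ratio of class CPM (5 CPM added) for the 9 genes (down the page) in 8 comparisons (across), coloured from blue (lower) to red (higher), with the value in each cell and called values in bold. Nnat in insulin cells over Neurog3-positive cells has the highest value, 6.65, and Peg10 is at 2.73 or more in glucagon, somatostatin, ghrelin and PP cells.

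Nnat in insulin cells had the highest ratio of any member in any comparison. Its level was 4371 CPM (95% interval 4351 to 4392) in insulin cells, 454 CPM in somatostatin cells, 46.5 CPM in PP cells, 27.8 CPM in ghrelin cells and 10.9 CPM in glucagon cells, against 38.6 CPM in Neurog3-positive cells. Over the 69 insulin cells it ran between 0 and 15671 CPM with a median of 2926, and over the 186 Neurog3-positive cells between 0 and 1746 CPM with a median of 0. It was at 10 CPM or more in 58 of 69 insulin cells (84.1%, exact binomial 95% interval 73.3 to 91.8) and in 23 of 186 Neurog3-positive cells (12.4%, 8.003 to 17.97). Insulin cells were thus high in most cells, although both classes held cells with none. In PP cells 1 cell held 81.6% of the Nnat counts and in ghrelin cells 1 held 59.5%, and without them these classes were at 9.24 and 11.6 CPM. Without its highest cell the Neurog3-positive class was at 26.3 CPM.

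The insulin class was higher than the Neurog3-positive class in Nnat within each of the 6 plates, by 4.42 to 9.37 on the log2 scale. By plate the insulin level was 865 CPM in EA01, 3802 in EA02, 2085 in EA03, 4954 in EA05, 1491 in EA06 and 8253 in EA07. None of these reached down to a plate level of Neurog3-positive cells, which were 2.52 to 47.7 CPM. Without rows D and H the insulin level was 1178 CPM in EA01, 4733 in EA02 and 2567 in EA03. The ratio was 7.06 at E17.5 and 6.48 at E15.5.

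The insulin cells without Nnat were mostly those of rows D and H. Of these 10 cells 9 had no Nnat count, and the class level was 14.8 CPM, against 4677 CPM in the 59 insulin cells of other wells, of which 57 were at 10 CPM or more. In the other wells of the same 3 plates Nnat was at 10 CPM or more in 18 of 18 insulin cells, with 2695 CPM. Without the rows the log2 ratio of insulin over Neurog3-positive cells was 6.75, against 6.65 with them.

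Somatostatin cells had Nnat at 10 CPM or more in 15 of 27 cells, with a median of 102.8 and a highest cell at 2155 CPM. They were above Neurog3-positive cells in 5 of 5 plates, by 1.36 to 7.19 (log2). The 2 somatostatin cells of rows D and H had none, and the other 25 were at 469.8 CPM. In glucagon cells the whole Nnat count came from 1 of 19 cells, at 166 CPM. Blcap, the host gene of Nnat and imprinted in some tissues, was also low there, at 2.44 CPM against 80.4 CPM in Neurog3-positive cells, and it was at 153.7 CPM in insulin cells.

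**Figure D2:**
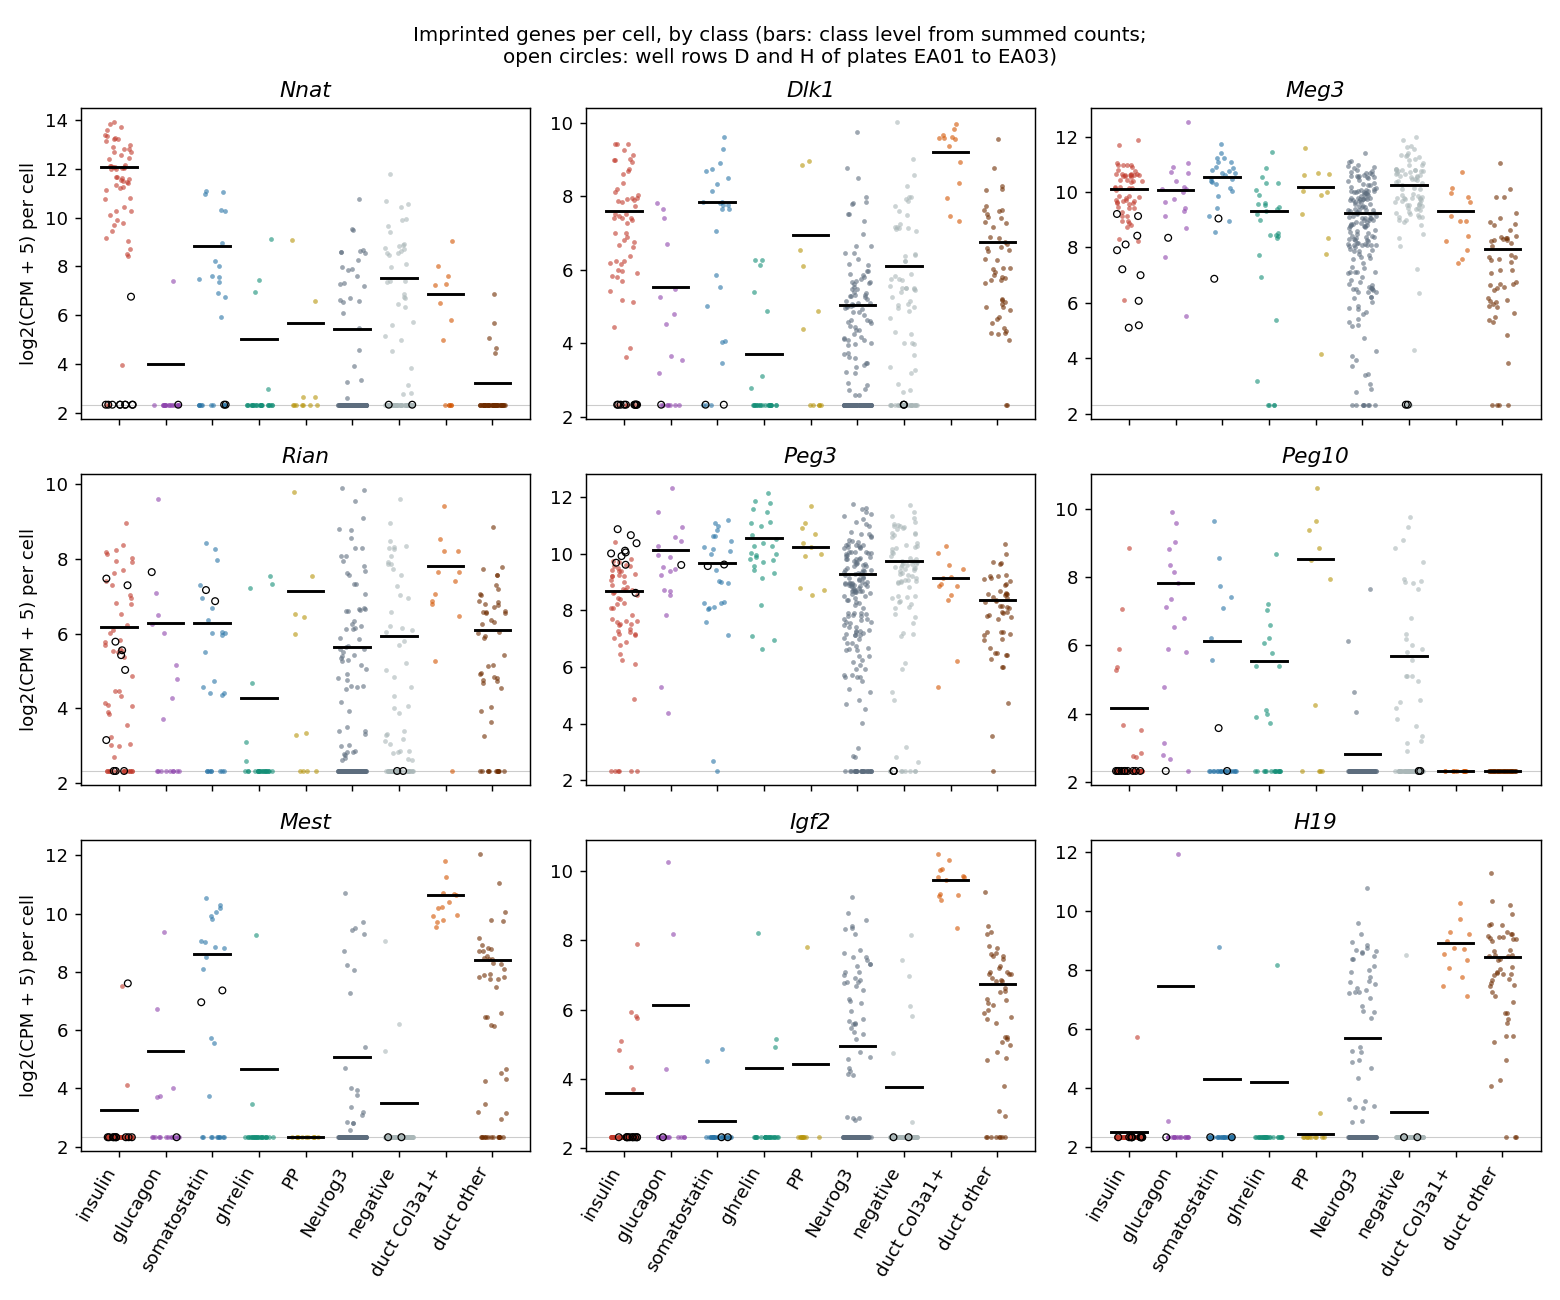
Levels of the 9 genes in each cell as log2(CPM + 5), by class on the x axis; points are cells, black bars are class levels from summed counts, and open circles mark wells in row D or row H of EA01 to EA03. Nnat is high in most insulin cells (58 of 69 at 10 CPM or more), and Igf2, H19 and Mest lie high in the 13 Col3a1-positive cells of the duct plate and low in most endocrine cells.

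Dlk1 was higher in insulin, somatostatin and PP cells and lower in ghrelin cells than in Neurog3-positive cells. The levels were 187.5 CPM in insulin, 223 CPM in somatostatin, 117.1 CPM in PP, 41.2 CPM in glucagon and 8.04 CPM in ghrelin cells, against 28.02 CPM in Neurog3-positive cells. At 10 CPM or more were 53 of 69 insulin cells and 21 of 27 somatostatin cells, against 71 of 186 Neurog3-positive cells. The highest cell was at 686 CPM among insulin cells and at 848 CPM among Neurog3-positive cells, so single cells overlapped while the shares differed.

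By plate, Dlk1 was higher in insulin cells in 6 of 6 plates (log2 ratio 0.72 to 3.77) and in somatostatin cells in 4 of 5 (-0.85 to 3.76). The lowest insulin ratio was in EA01, at 67.7 against 39.2 CPM, and insulin cells there were at 93.2 CPM without rows D and H. Ghrelin cells were lower in 3 of 4 plates and higher in EA03, where 3 cells were at 29.4 CPM against 17.8 CPM in Neurog3-positive cells. Insulin and somatostatin plates overlapped each other. The rows D and H again stood apart, with Dlk1 in 0 of 10 insulin cells (0 counts, which allows up to 1.43 CPM), against 200.7 CPM and 53 of 59 cells at 10 CPM or more in other wells. The log2 ratio of insulin over Neurog3-positive cells was 2.64 without the rows and 2.54 with them. In PP cells 1 of 11 cells held 44.6% of the Dlk1 counts (72.6 CPM without it), and the log2 ratio of 1.89 turned to -0.16 for the 7 PP cells whose hormone passed 90% of the sum and to -1.17 within plates EA01 to EA03, which held 3 PP cells.

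Meg3 and Rian, the noncoding RNAs that follow Dlk1 on chromosome 12, differed less between classes. Meg3 was at 10 CPM or more in all 69 insulin, 19 glucagon, 27 somatostatin and 11 PP cells, in 23 of 28 ghrelin cells and in 172 of 186 Neurog3-positive cells. Its levels were 1488 CPM in somatostatin, 1158 CPM in PP, 1102 CPM in insulin, 1070 CPM in glucagon and 637 CPM in ghrelin cells, against 601 CPM in Neurog3-positive cells. Only the somatostatin class passed 2-fold (log2 ratio 1.30), and it was higher in 5 of 5 plates, by 0.38 to 1.35. The 88 hormone-negative and Neurog3-negative cells were at 1211 CPM.

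Rian, a host transcript of small nucleolar RNAs and microRNAs, was detected in fewer cells. It was at 135.7 CPM in PP, 73.7 CPM in glucagon, 72.6 CPM in somatostatin, 67.8 CPM in insulin and 14.5 CPM in ghrelin cells, against 45.3 CPM in Neurog3-positive cells. The PP value rested on 1 cell with 68.7% of the counts, without which it was 47.5 CPM. In glucagon cells 1 cell held 59.6%, and the class was at 31.6 CPM without it, under the level of Neurog3-positive cells. The lower level of ghrelin cells (log2 ratio -1.37) did not hold in EA03, where their 3 cells were at 54.3 CPM, against 22.7 CPM in Neurog3-positive cells. All 54 Neurog3-positive cells with Rian at 10 CPM or more also had Meg3, which was in 172 of the 186 cells of the class. Of the 71 cells with Dlk1, 24 also had Rian, against 54 of 186 in the class.

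Peg3, which codes for a zinc finger protein, was present in most cells of every class and highest in ghrelin cells. Its levels were 1523 CPM in ghrelin, 1221 CPM in PP, 1125 CPM in glucagon, 814 CPM in somatostatin and 407 CPM in insulin cells, against 619 CPM in Neurog3-positive cells. All 28 ghrelin cells had it, between 93.99 and 4513 CPM with a median of 1026. Neurog3-positive cells lay between 0 and 3499 CPM with a median of 370.3, so the cells overlapped widely. Only the ghrelin class passed 2-fold (log2 ratio 1.29), and it was above Neurog3-positive cells in 4 of 4 plates, by 0.55 to 2.87. The glucagon class was above them in 3 of 3 plates, by 0.62 to 1.90.

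Peg3 ran the other way from Nnat and Dlk1 in rows D and H. The 10 insulin cells of these rows had 1067 CPM of Peg3, between 389 and 1872 CPM, against 360.4 CPM in the 59 insulin cells of other wells, between 0 and 1373 CPM. Meg3 was lower in these rows, at 244 CPM against 1163 CPM. The insulin class without the rows had a Peg3 log2 ratio of -0.77 over Neurog3-positive cells, against -0.60 with them.

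Peg10, a gene derived from a retrotransposon and required for the placenta, was found mainly in hormone cells other than insulin cells and in hormone-negative and Neurog3-negative cells, which were at 46.6 CPM. It was at 363 CPM in PP, 222 CPM in glucagon, 64.3 CPM in somatostatin, 42.02 CPM in ghrelin and 12.98 CPM in insulin cells, against 2.11 CPM in Neurog3-positive cells. Leaving out the highest cell of each class gave 223 CPM in PP, 39.97 CPM in somatostatin, 25.3 CPM in ghrelin and 3.65 CPM in insulin cells, against 0.583 CPM in Neurog3-positive cells. It was at 10 CPM or more in 14 of 19 glucagon cells (73.7%, 48.8 to 90.9) and 7 of 11 PP cells, against 4 of 186 Neurog3-positive cells (2.15%, 0.589 to 5.41). Among glucagon cells it ran between 0 and 944 CPM with a median of 106.7.

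Glucagon cells were at 356 CPM in EA01, 191 CPM in EA02 and 231 CPM in EA05, all above every plate of Neurog3-positive cells, which lay between 0 and 5.90 CPM. The within-plate log2 ratios were 5.18 to 6.17. These glucagon plates also lay above the 5 plates of somatostatin cells, which reached 167.5 CPM, the only pair of neighbours in the order of levels of any member whose plates did not overlap where both classes had 3 plates or more. Somatostatin cells were higher than Neurog3-positive cells in 4 of 5 plates and ghrelin cells in 4 of 4. The single glucagon cell of row D had no Peg10. No count of Peg10 was found in the 66 cells of the duct plate, which allows up to 0.127 CPM.

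Of the 6 listed neighbours of Peg10 on chromosome 6, several were called higher in hormone classes. Asb4, an adaptor of a ubiquitin ligase, was at 118.5 CPM in glucagon, 40.6 CPM in somatostatin and 36.9 CPM in PP cells, and had no count in Neurog3-positive cells. Pon3, a paraoxonase, was at 113.7 CPM in glucagon, 73.2 CPM in PP, 58.6 CPM in insulin and 26.4 CPM in somatostatin cells, against 3.36 CPM in Neurog3-positive cells. It was thus called higher in insulin cells as well, where Peg10 was not called. Both were at 10 CPM or more in a minority of glucagon cells (21.1% for Asb4 and 26.3% for Pon3), and Calcr, the calcitonin receptor, rested on 1 of 19 glucagon cells. These genes reached 20 CPM only through the classes where they were high, so no count over the list is given. Sgce, epsilon sarcoglycan, was at 182 CPM in PP and 56.2 CPM in ghrelin cells, against 24.6 CPM in Neurog3-positive cells, and it was the only neighbour called in ghrelin cells.

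Mest, which codes for an enzyme of the alpha/beta hydrolase fold, was high in somatostatin cells alone among the hormone classes. It was at 384 CPM (374 to 393) in somatostatin, 33.8 CPM in glucagon, 20.2 CPM in ghrelin, 4.62 CPM in insulin and 0 CPM in PP cells, against 28.7 CPM in Neurog3-positive cells. It was at 10 CPM or more in 16 of 27 somatostatin cells (59.3%, 38.8 to 77.6), up to 1496 CPM, against 13 of 186 Neurog3-positive cells (6.99%, 3.77 to 11.7), up to 1664 CPM. By plate the somatostatin level was 26.5 CPM in EA01, 421 in EA02, 299.7 in EA05, 119.2 in EA06 and 739 in EA07, above Neurog3-positive cells in 4 of 5 plates with EA01 the exception. The mesenchyme markers, high in the cells of the duct plate with most Mest, summed to 65.9 CPM in somatostatin cells and 131.2 CPM in Neurog3-positive cells.

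The values of the other classes rested on few cells. In ghrelin cells 1 cell of EA05 held 99.2% of the Mest counts. In glucagon cells the Col3a1 cell of EA03 held 84.7%, and the other 18 cells were at 5.40 CPM. In insulin cells the cell with acinar markers held 58.01%, and the class was at 1.97 CPM without it. Mest shares exon bases with Copg2, which was at 33.5 CPM in somatostatin cells against 15.3 CPM in Neurog3-positive cells and was not called.

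Igf2, a growth factor, and its neighbour H19 were low in hormone cells. Igf2 was at 65.5 CPM in glucagon, 16.6 CPM in PP, 14.9 CPM in ghrelin, 7.22 CPM in insulin and 1.89 CPM in somatostatin cells, against 25.8 CPM in Neurog3-positive cells. H19 was at 171 CPM in glucagon, 14.9 CPM in somatostatin, 13.3 CPM in ghrelin, 0.714 CPM in insulin and 0.402 CPM in PP cells, against 46.5 CPM in Neurog3-positive cells. For Igf2, the PP value came wholly from 1 of 11 cells, and without the highest cell the ghrelin class was at 2.39 CPM, the insulin class at 3.70 CPM and the somatostatin class at 1.01 CPM. The glucagon values came from the Col3a1 cell of EA03, which had 3892 CPM of H19 and 1216 CPM of Igf2. Without it, the other 18 glucagon cells had 0.0947 CPM of H19 and 12.6 CPM of Igf2, and the log2 ratios over Neurog3-positive cells were -3.34 and -0.81 in place of 1.77 and 1.20.

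In insulin, somatostatin, ghrelin and PP cells H19 was found in 1 cell each. The insulin one was the EA02 cell with acinar markers, and the other 68 insulin cells had none. Among Neurog3-positive cells, 37 of 186 had H19 and 45 had Igf2 at 10 CPM or more, with 20 cells having both, which is 54.1% of the H19 cells and 44.4% of the Igf2 cells. H19 was over 2-fold lower in insulin cells in 3 of the 6 plates, EA01 to EA03 (log2 ratio -3.73 to -3.33). In EA05 and EA06 neither class had a count, so these plates could show no lower level. In EA07 insulin cells were at 0 CPM against 3.39 CPM. Within EA05 to EA07, where Neurog3-positive cells were at 0 to 3.39 CPM of H19, the log2 ratio of H19 was 1.72 in somatostatin and 1.53 in ghrelin cells, each resting on 1 cell and opposite to the direction over all plates.

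In the duct plate, Col3a1-positive cells were set against the other cells, of which most carried acinar genes. Of 8 measured members 6 were higher and 0 lower, where 28% of 7996 genes were higher and 23.3% lower, and the members' median log2 ratio was 1.98 against 0.08 over all genes. Igf2 was at 855 CPM in Col3a1-positive cells against 101.6 CPM in the others (log2 ratio 3.01). The 13 cells lay between 325 and 1427 CPM with a median of 896, and the 53 others between 0 and 666 CPM with a median of 72.05. The ranges overlapped, but the median of the Col3a1-positive cells was above the highest of the others.

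Mest was at 1606 CPM in Col3a1-positive cells against 336 CPM in the other duct plate cells (2.24), and the ranges, 747 to 3564 and 0 to 4201 CPM, overlapped. Dlk1 was at 586 against 103.04 CPM (2.45), with 13 of 13 and 51 of 53 cells at 10 CPM or more. Nnat was at 112.6 against 4.17 CPM (3.68), in 8 of 13 and 5 of 53 cells, and 78.5 against 2.19 CPM without the highest cell of each class. Meg3 was at 639.7 against 239 CPM (1.40) and Rian at 221 against 63.2 CPM (1.73). The 3 genes of the chromosome 12 cluster were thus all called higher in Col3a1-positive cells.

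H19 did not follow Igf2 in the duct plate. It was at 482 CPM in Col3a1-positive cells against 342 CPM in the others (log2 ratio 0.49), in 13 of 13 and 50 of 53 cells. Among the others it was at 405 CPM in the 43 cells with Cpa1, all of them at 10 CPM or more, and at 96.6 CPM in the 10 cells without. Peg3 was at 556 against 323 CPM (0.77) and was not called either. In the 10 cells without Cpa1 the duct markers summed to 13515 CPM, against 2400 CPM in the 43 cells with Cpa1. By cell that sum lay between 0 and 24213 CPM, with a median of 13791 in the cells without Cpa1. Their endothelium sum was 569 CPM, of which 1 cell reached 5383 CPM. The part of the cells without Cpa1 in the values of the 53 other cells was not tested.

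**Figure D3:**
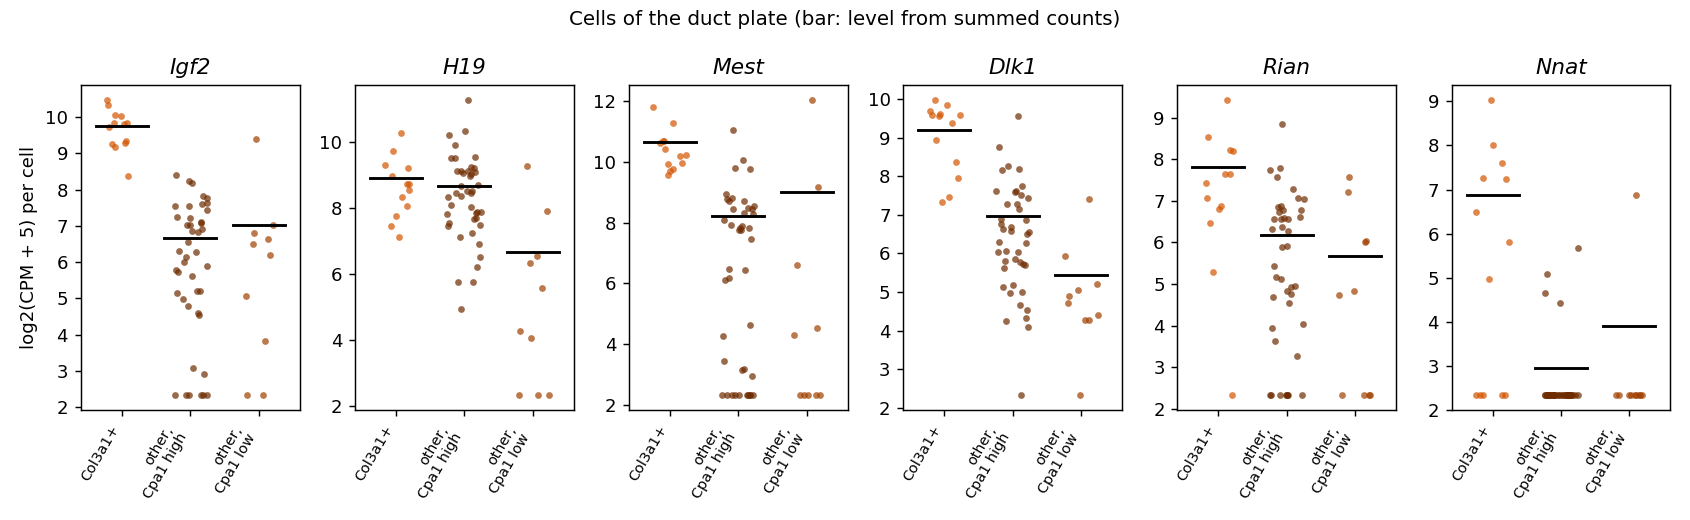
Levels of Igf2, H19, Mest, Dlk1, Rian and Nnat in the cells of the duct plate as log2(CPM + 5), for 13 Col3a1-positive cells, 43 other cells with Cpa1 at 1000 CPM or more and 10 other cells below it; points are cells and bars are class levels. Igf2 and Mest are highest in Col3a1-positive cells (855 and 1606 CPM), while H19 is similar in Col3a1-positive and Cpa1 cells (482 and 405 CPM).

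Neurog3-positive cells had less of the members that were high in the duct plate. Against the 53 duct plate cells without Col3a1, 2 of 8 measured members were higher and 4 lower, where 27.1% of 8048 genes were higher and 14.5% lower. Mest was at 28.7 against 336 CPM (log2 ratio -3.34), H19 at 46.5 against 342 CPM (-2.75), Igf2 at 25.8 against 101.6 CPM (-1.79) and Dlk1 at 28.02 against 103.04 CPM (-1.71). Nnat (38.6 against 4.17 CPM) and Meg3 (601 against 239 CPM) were higher. The shares of cells with Nnat at 10 CPM or more were close, at 12.4% of 186 Neurog3-positive cells and 9.43% of the 53 others. With the median of the cells' own CPM the Nnat log2 ratio was 0. The duct plate cells were 1 plate of 1 code, so that cell class, plate and code cannot be told apart. They were all of E15.5, while 55 of the Neurog3-positive cells were of E17.5, so stage and strain differ in part as well. With the Neurog3-positive cells of EA01 to EA03 alone, all of E15.5, the ratio was -2.62 for Mest, -2.03 for H19 and -1.16 for Igf2.

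Neurog3-positive cells of E17.5 (55 cells) were also set against those of E15.5 (plates EA01, EA02, EA03 and EA05). Of 8 measured members 1 was higher and 3 lower, where 23.9% of 8041 genes were higher and 5.72% lower, and the members' median log2 ratio was -0.89 against 0.33. Igf2 was at 0.0480 CPM at E17.5 against 42.6 CPM at E15.5, Mest at 0.0721 against 47.5 CPM and H19 at 2.52 against 75.3 CPM, with 96.2% of the E17.5 counts of H19 from 1 cell. At 10 CPM or more, Igf2 was found in 0 of 55 cells at E17.5 (upper limit of the exact interval 6.49%) and in 34.4% of cells (26.3 to 43.1) at E15.5.

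The plates of E15.5 differed for these genes. Mest was at 0 CPM in EA06 and 0.0968 CPM in EA07 at E17.5, against 47.9 CPM in EA01, 63.5 in EA02, 41.3 in EA03 and 0 in EA05 at E15.5. H19 was likewise at 0 CPM in EA05. Igf2 was at 0 and 0.0645 CPM in the E17.5 plates and at 24.3 to 59.3 CPM in the 4 E15.5 plates, with 41.6 CPM in EA05. With the 7 cells of EA05 alone as the E15.5 side, the log2 ratio was -3.21 for Igf2, 0.02 for Mest and 0.59 for H19. Of the 3 lower members, Igf2 alone kept its direction in that comparison, on 2 of 7 EA05 cells at 10 CPM or more, the highest at 322 CPM.

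Peg3 was at 902 CPM at E17.5 against 434 CPM at E15.5 (log2 ratio 1.05), with 628 CPM in EA06 and 995 CPM in EA07 against 371 to 519 CPM in the 4 E15.5 plates. The plates did not overlap, but the ratio fell below 2-fold under edgeR and DESeq2 scaling and to 0.53 without EA07. Meg3 (626 against 585 CPM) differed by less than its plates did. Nnat was at 39.5 against 37.9 CPM, but 1 E17.5 cell held 79.9% of its counts, and the E17.5 class was at 8.10 CPM without it. The Nnat log2 ratio was -1.98 with a Neurog3 threshold of 100 CPM and 2.57 with EA05 alone at E15.5. Stage, strain, plates and any library batch cannot be told apart here. The sample titles of EA05 share their form with those of EA06 and EA07, unlike the other E15.5 plates. In EA05, EA06 and EA07 Mest was at 0, 0 and 0.0968 CPM and H19 at 0, 0 and 3.39 CPM. The part of this grouping in the stage results was not tested. Median depth was 756006 counts at E17.5 against 490454 at E15.5, and the mesenchyme markers summed to 202 against 84.7 CPM. Endocrine markers summed to 8158 against 1746 CPM, beta cell markers to 459 against 155.6 CPM and acinar markers to 184 against 31.95 CPM. The part of depth and of these markers in the stage results was not tested.

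**Figure D4:**
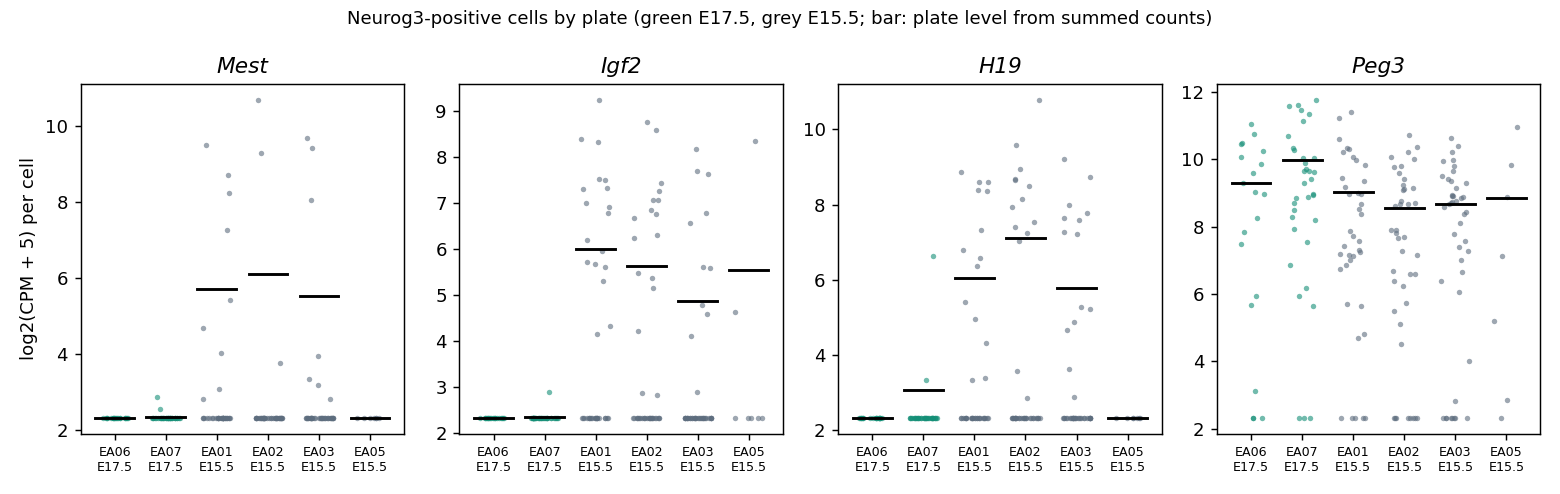
Levels of Mest, Igf2, H19 and Peg3 in each Neurog3-positive cell as log2(CPM + 5), with the E17.5 plates EA06 and EA07 (green) left of the E15.5 plates EA01, EA02, EA03 and EA05 (grey); points are cells and bars are plate levels from summed counts. Igf2 is near 0 in both E17.5 plates and at 24.3 CPM or more in every E15.5 plate, while Mest and H19 are at 0 in EA05 of E15.5 as well.

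Other imprinted genes were read from lists of 57 genes, of which 56 were in the table. In Col3a1-positive cells 14 of 31 measured were higher and 3 lower than in the other duct plate cells, with a median log2 ratio of 0.76, where 28% of all genes measured were higher and 23.3% lower. A gene could be measured through its higher class alone, in this list as among all genes. Cdkn1c, an inhibitor of cell cycle kinases, was at 661 against 79.7 CPM, and Plagl1, a zinc finger protein, at 512 against 40.4 CPM. Kcnq1 went the other way, with no count against 92.5 CPM. Of 10 measured genes of the IGF axis 6 were higher and 1 lower, against the same shares of all genes, among them Igf1 at 1261 against 244 CPM, Igfbp5 at 968 against 16.03 CPM and Igfbp3 at 332 CPM against no count. Of 9 measured genes of imprint maintenance 1 was higher and 2 lower, against the same shares of all genes. The higher gene was Zfp57, at 59.6 against 3.14 CPM. Dnmt1, the maintenance DNA methyltransferase, was at 1.02 against 47.2 CPM, and its cofactor Uhrf1 at 31.4 against 112.6 CPM.

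Against Neurog3-positive cells, 15 of 32 were higher and 1 lower in glucagon cells, where 19.2% of all genes were higher and 23.7% lower. In insulin cells 10 of 29 were higher and 4 lower (all genes 11.9% and 16%), and in somatostatin cells 9 of 31 and 7 (16.5% and 18.6%). In PP cells they were 11 of 30 and 6 (19.9% and 25.4%), and in ghrelin cells 6 of 29 and 5, near the shares of all genes (14.4% and 16.1%). These counts include genes that reached 20 CPM through the hormone class alone, such as Asb4, Nap1l5 and Calcr in glucagon cells. They also include the Col3a1 glucagon cell and the cells of rows D and H, and no conclusion is drawn from them. Ndn, a gene of the Snrpn domain, was higher in all 5 hormone classes, from 133.5 CPM in ghrelin to 344 CPM in PP cells, against 59.7 CPM in Neurog3-positive cells. Nap1l5, a nucleosome assembly protein homologue, was at 94.2 CPM in glucagon, 67.02 CPM in ghrelin, 61.2 CPM in PP (1 of 11 cells), 22.6 CPM in somatostatin and 11.4 CPM in insulin cells, and had no count in Neurog3-positive cells. Cdkn1c had no count in PP cells and was at 97.7 CPM in Neurog3-positive cells. At E17.5 Cdkn1c was at 34.1 CPM in Neurog3-positive cells, against 139.3 CPM at E15.5.

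Levels were also compared cell by cell as log2(CPM + 5), a description in which cells share plates, batches and depth. In the insulin class Nnat and Dlk1 had a Pearson correlation of 0.73 (Spearman 0.68, 69 cells), and of 0.43 (0.51) in the 59 cells outside rows D and H. Nnat and Ins2 had -0.08 (0.11) with the rows and 0.46 (0.68) without them, so that the value turned on these 10 cells. Dlk1 and Ins2 had 0.09 (0.07) with the rows and 0.56 (0.60) without. Igf2 and H19 had 0.61 over all 495 cells, 0.37 in the duct plate (66 cells) and 0.31 in Neurog3-positive cells. Meg3 and Rian had 0.25 over all cells and 0.51 in the duct plate.

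**Figure D5:**
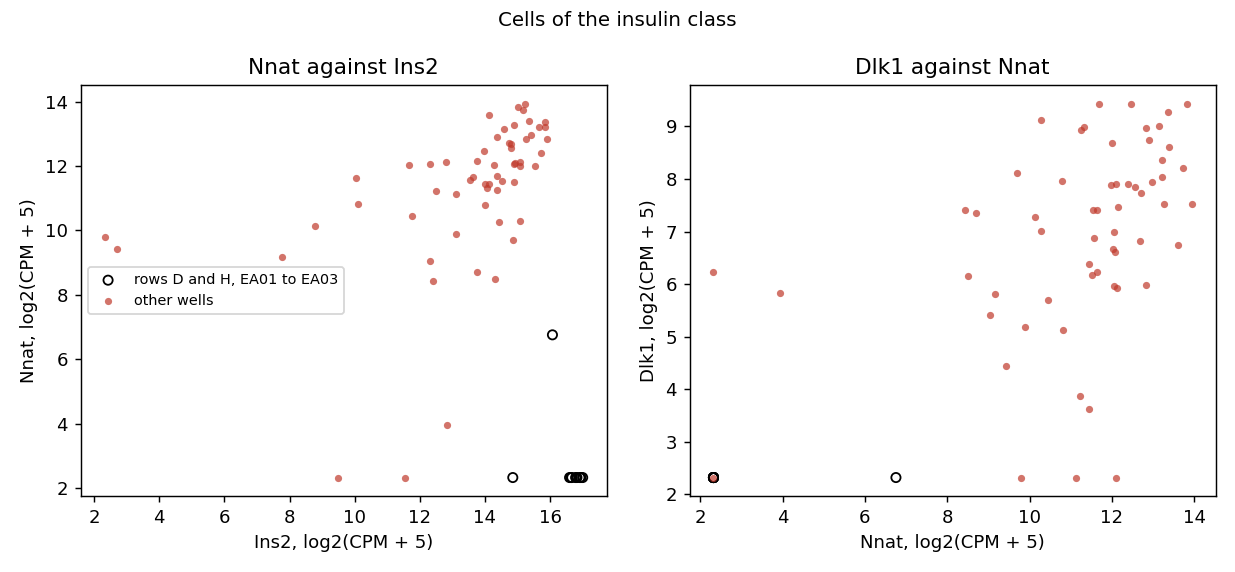
Nnat against Ins2 (left) and Dlk1 against Nnat (right) in the 69 insulin cells, all as log2(CPM + 5); each point is 1 cell, and open circles are the 10 cells from row D or row H of EA01 to EA03. The 10 cells have high Ins2 and, in 9 of 10, no Nnat count, and the other 59 cells have a Pearson correlation of 0.46 between Nnat and Ins2.

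The genes most like each member over all 495 cells were named among 10151 candidates. They were Ppp1r1a (Pearson correlation 0.66), Ins2 (0.62) and Sytl4 (0.60) for Nnat, and Pdia6 (0.35), Tmed6 (0.34) and Hadh (0.34) for Dlk1. For Meg3 they were Gnas (0.45), itself imprinted in some tissues, Rbp4 (0.43) and Malat1 (0.43), and for Rian the highest was Rcn3 (0.27). For Peg3 they were Isl1 (0.33), Pyy (0.28) and Gnao1 (0.28), and for Peg10 Gast (0.44), Tmem27 (0.41) and Pyy (0.41). For Mest they were Igf1 (0.59), Lgals1 (0.53) and Fxyd1 (0.52), for Igf2 Igf1 (0.56), Ldha (0.52) and Tcea3 (0.51), and for H19 Igf1 (0.71), Ldha (0.67) and Cldn10 (0.65). Igf1, the growth factor shared by these lists, was at 1261 CPM in Col3a1-positive cells, 244 CPM in the other duct plate cells and at most 28.6 CPM in any class of the other plates. Within the 186 Neurog3-positive cells the genes most alike were other ones, with Lrp3 (0.40) for Nnat, Kcne1l (0.51) for Mest and Apoc1 (0.39) for H19.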

How the data were processed

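Gene counts of 495 Smart-Seq2 cells were used as deposited by the authors, unnormalized. FastQC, STAR, HTSeq and mm10 are named, per the submitters' processing notes, with no version or strand setting. Counts were summed per class and divided by the class total (CPM). Log2 ratios had 5 CPM added. Genes at 20 CPM or more in either class were measured, and those past 2-fold were called. Each labelled group was 1 sample, so no test was run. Exact Poisson and Clopper-Pearson 95% intervals cover counting error only, and reads are not molecules. The members and gene lists were chosen with earlier results of these data known. Other listed genes that are named were mostly among those with the largest ratios in their list, or were neighbours of a member. Not every such gene was named. The most alike genes were named by Pearson correlation over cells. Alternatives included edgeR 4.0.16 and DESeq2 1.42.0 scaling and thinning to 200000 counts. Scripts (Python 3.11.15, R 4.3.3) were tested on simulated data.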

Additional observations from a re-analysis of the deposited data

Results flagged for a closer look

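In 12 of 45 sets of plate levels 1 plate lay far from the others, where chance flags about 1 in 20. H19 was at 32.7 CPM in ghrelin cells of EA06, 8.74 CPM in insulin cells of EA02, 65.4 CPM in somatostatin cells of EA05 and 12.1 CPM in hormone-negative and Neurog3-negative cells of EA05, each against 0 CPM in the other plates tested. Each of these 4 values came from 1 cell, and the chance rate does not hold for sets in which every other plate is at 0. Igf2 was at 33.1 CPM in ghrelin cells of EA06, with the nearest plate at 5.18 CPM, and at 35.4 CPM in insulin cells of EA03, with the nearest at 6.09 CPM. Mest was at 157.2 CPM in ghrelin cells and 16.2 CPM in hormone-negative and Neurog3-negative cells of EA05, with the nearest plates at 0.402 and 4.73 CPM. Nnat was at 20.7 CPM in ghrelin cells of EA07, with the nearest at 0.268 CPM. Rian was at 54.3 CPM in ghrelin cells of EA03, with the nearest at 3.70 CPM. These values of Igf2, Mest, Nnat and Rian also rested on few cells. Igf2 in EA06 had 2 cells at 10 CPM or more, and each of the others had 1. In the 7 Neurog3-positive cells of EA05, Meg3 was at 1571 CPM and Rian at 172 CPM, with the nearest plates at 679 and 72.9 CPM.

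In 3 of 27 contrasts between stages every E17.5 plate had the opposite sign to every E15.5 plate. The median within-plate log2 ratio over Neurog3-positive cells at E17.5 minus that at E15.5 was 4.85 for Igf2 in ghrelin cells, 4.08 for Igf2 in somatostatin cells and -2.12 for Peg10 in insulin cells. They rest on low levels and few cells. At E17.5 Igf2 was at 4.49 CPM in somatostatin cells of EA06 and 2.80 CPM in EA07, each with 1 cell at 10 CPM or more. In ghrelin cells it was at 33.1 and 5.18 CPM, with 2 and 1 such cells. Peg10 at E17.5 was at 0 CPM in insulin cells of both plates, against 3.10 and 5.90 CPM in Neurog3-positive cells. These differences were not tested, no chance rate was computed for them, and stage and strain cannot be told apart.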

How the results depend on the processing

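The 42 called ratios were recomputed to 948 values, of which 905 kept their direction, 863 stayed past 2-fold, 19 were at 0 and 24 reversed. For Col3a1-positive cells 6 members stayed higher and 0 lower under every alternative run. With the median of the cells' own CPM, 1 member was higher in Neurog3-positive cells over the duct plate, 4 in insulin and 1 in ghrelin cells, and 0 were lower in insulin, glucagon, somatostatin, ghrelin and PP cells and between stages. With 20 CPM added, 1 member was lower in insulin, somatostatin and ghrelin cells each and 0 in glucagon cells. With cells thinned to 200000 counts, 5 were higher in glucagon cells. With a Neurog3 threshold of 100 CPM, 0 were lower in glucagon cells and 5 higher in PP cells. With a hormone threshold of 10000 CPM, 1 was lower in somatostatin cells, and 1 was higher and 5 lower in ghrelin cells.

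With a hormone over 90% of the sum, 1 was higher and 3 lower in glucagon cells (Igf2 -0.54, H19 -3.33) and 4 lower in PP cells (Dlk1 -0.16, Rian -1.06). Without EA03 glucagon cells had 1 higher and 3 lower (Igf2 -0.82, H19 -3.32), and without their Col3a1 cell 1 and 3 (Igf2 -0.81, H19 -3.34). Within EA01 to EA03, 4 were lower in PP cells (Dlk1 -1.17, Rian -0.062), and ghrelin cells had Dlk1 at 0.076 and Rian at 0.58. Within EA05 to EA07, 1 was lower in insulin cells (Mest 0.042, Igf2 0.18) and 0 in somatostatin (H19 1.72) and PP cells, with H19 at -0.51 in glucagon and 1.53 in ghrelin cells. At E17.5 alone, 1 was lower in insulin cells (Igf2 0.62), 2 in glucagon cells (Igf2 -0.014, H19 -0.59), and 0 in somatostatin (Igf2 0.74) and PP cells, with H19 at 1.67 in ghrelin cells. Without EA01 or EA02, 1 was lower in somatostatin cells.

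Between stages, 0 members were higher with the mean of the cells' CPM, edgeR or DESeq2 factors, totals without Rn45s, thinning, or without EA02, EA03 or EA07, and 2 with hormone cells included. There 5 were lower with edgeR or DESeq2 factors, totals without Rn45s, a Neurog3 threshold of 100 CPM, or without EA03 or EA06. With EA05 alone at E15.5, Mest was at 0.021 and H19 at 0.59. The cause of these changes was not tested. No paired analysis was possible because no test was run and replicate numbers only name cells, although classes share plates and their within-plate ratios are given above. Depth limits members at few counts, such as H19 in PP cells.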
